A study of Homo sapiens with 10 samples.

Results

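In control HEK293T cells, 11624 of the 26635 CTCF peaks (43.6%) called from reads mapped to the repeat-masked genome overlapped, by even 1 bp, no peak called from the same reads on the unmasked genome. They are called masked-only CT peaks here. They were chosen by the positions of the repeat-masked and unmasked CTCF peaks of the control alone. Both lists come from 1 library, so their absence from the unmasked list is no finding and their widths are a description. The remaining 15011 repeat-masked CT peaks, each overlapping an unmasked CT peak, served for comparison. The question was how many of the masked-only peaks carry the marks of CTCF binding that the choice did not use, and how many carry none of them.

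HEK293T is a human embryonic kidney cell line. Chromatin immunoprecipitation with sequencing (ChIP-seq) was done in cells transduced by lentivirus with a non-targeting shRNA (CT), a CGGBP1-silencing shRNA (KD) or a construct overexpressing CGGBP1 (OE), a protein known for binding CGG triplet repeats. Control and silenced cells had been selected with puromycin at 10 ug/ml. CTCF was measured in all 3 conditions, trimethylation of histone H3 at lysines 4, 9 and 27 (H3K4me3, H3K9me3, H3K27me3) in CT and KD, and 1 input without immunoprecipitation was sequenced, with its cells not named. There is 1 library for each target and condition, 10 in all, from 1 cell line. Differences between CT, KD and OE thus have no replicate error, and no test was made. Intervals are exact Clopper-Pearson 95% intervals for shares of peaks, and for differences 95% intervals over peaks. They cover counting error only. The lists give positions without height or read number, so the depth behind a single peak is unknown.

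As a check on the cells, H3K4me3 peaks were looked for within 1 kb of the transcription start site (TSS) of marker genes. Of genes of the developing kidney, LHX1 and SALL1 had such a peak in CT and in KD, while PAX2 and EYA1 had none in either. Of 3 genes used in all cells, ACTB and GAPDH had one and EEF1A1 had none. The genes ALB of liver, HBB, CD3E and PTPRC of blood and INS of pancreas had none.

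CTCF is a zinc finger protein that recognises a long, conserved DNA motif, holds chromatin loops together with cohesin and can insulate genes from neighbouring enhancers. Repeat masking replaces interspersed and simple repeats of the genome with unknown bases, so that reads from them either fail to map or map elsewhere. H3K4me3 marks active and poised promoters, and H3K9me3 and H3K27me3 mark repressed chromatin.

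The following 150-base windows show the 3 kinds of masked-only CT peak described here, on the forward strand of hg38. The a windows hold a CTCF site and lie in peaks that recur in all 4 CTCF lists of KD and OE, the b windows lie in promoter peaks with H3K4me3 and no site, and the c windows lie in peaks with none of these. Capitals mark the 14 bases of the best match to the CTCF motif, which lies on the forward strand in a2 and a3 and on the reverse strand in a1. The windows are chr3:94069346-94069495, chr4:2441836-2441985, chr6:135506377-135506526, chr1:110391353-110391502, chr12:31960058-31960207, chrX:155919972-155920121 and chr5:69963920-69964069.
a1: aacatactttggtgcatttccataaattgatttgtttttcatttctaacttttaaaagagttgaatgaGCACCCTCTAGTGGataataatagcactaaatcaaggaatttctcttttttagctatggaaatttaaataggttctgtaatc
a2: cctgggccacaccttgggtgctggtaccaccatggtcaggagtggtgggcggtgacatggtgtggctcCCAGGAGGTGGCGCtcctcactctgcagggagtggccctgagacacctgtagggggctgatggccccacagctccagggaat
a3: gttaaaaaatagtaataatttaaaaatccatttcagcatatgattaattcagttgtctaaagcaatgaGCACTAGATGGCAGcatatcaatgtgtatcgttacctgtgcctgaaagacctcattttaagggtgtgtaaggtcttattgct
b1: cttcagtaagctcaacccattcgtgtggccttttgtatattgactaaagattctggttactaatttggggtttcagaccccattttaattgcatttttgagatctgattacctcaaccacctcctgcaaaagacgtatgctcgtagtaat
b2: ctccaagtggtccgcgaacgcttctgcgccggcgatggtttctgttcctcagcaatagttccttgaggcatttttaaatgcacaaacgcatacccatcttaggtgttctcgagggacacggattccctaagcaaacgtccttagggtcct
c1: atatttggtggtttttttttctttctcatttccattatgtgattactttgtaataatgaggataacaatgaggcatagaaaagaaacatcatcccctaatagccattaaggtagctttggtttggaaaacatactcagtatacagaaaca
c2: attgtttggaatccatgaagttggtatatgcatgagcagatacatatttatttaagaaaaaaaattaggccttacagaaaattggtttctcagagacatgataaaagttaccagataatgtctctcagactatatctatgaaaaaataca

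Masked-only CT peaks were narrow. The narrowest width in the repeat-masked CT list is 211 bp, and 7456 of them (64.1%, 63.3 to 65.0) had exactly that width, against 2335 of the other peaks (15.6%). Their median was 211 bp and their upper quartile 212 bp, where the other peaks had a median of 268 bp and an upper quartile of 317 bp. Most of them thus sat at the smallest width the caller reported. Only 500 of them (4.30%) exceeded 300 bp, against 4825 of the others (32.1%), and the widest measured 873 bp. Of all repeat-masked CT peaks 36.8% lay at the narrowest width. In the repeat-masked KD list 6.06% lay at its narrowest width of 166 bp, and in OE 6.68% at its narrowest of 161 bp.

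**Figure D1:**
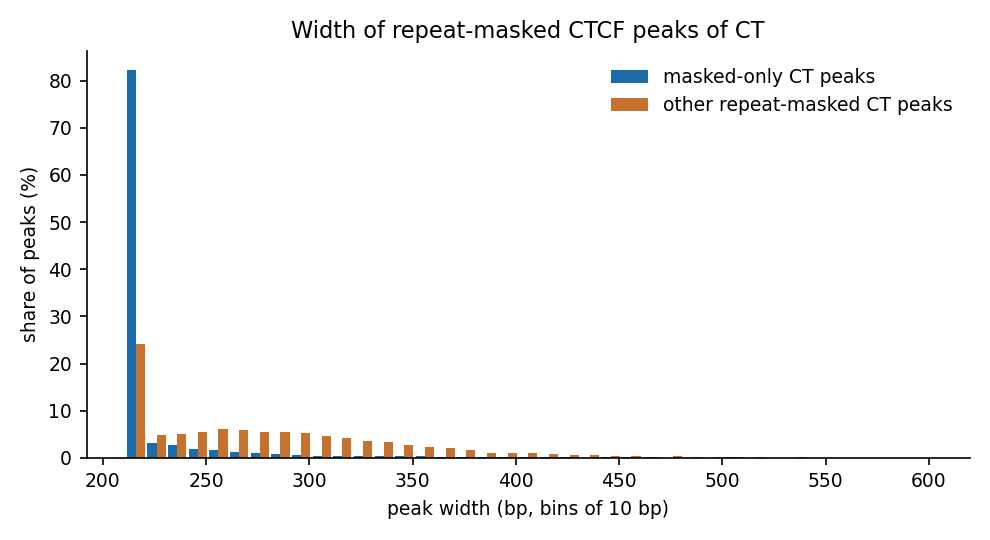
Share of peaks (%) by peak width in bins of 10 bp, drawn to 600 bp, for masked-only CT peaks and the other repeat-masked CT peaks. The first bin, 211 to 220 bp, holds 82.2% of the masked-only peaks and 24.2% of the others.

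The same definition gave far fewer peaks in the other conditions. In KD, 1701 of 24418 repeat-masked peaks (6.97%) overlapped no unmasked KD peak, and in OE 2301 of 21071 (10.9%). Those peaks held a CTCF site more often than the masked-only CT peaks, in 49.4% and 49.1%. The thresholds of the unmasked calls differ between conditions by the labels, with p below 0.0025 for CT and KD and 0.005 for OE, and the part of peak calling in these numbers was not tested.

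Few masked-only peaks lay close to an unmasked CT peak. The median gap to the nearest one was 27.4 kb, 6 lay within 100 bp and 171 more within 1 kb, while 8102 (69.7%) lay 10 to 100 kb away. At the edge of the definition, the closest peak abutted an unmasked CT peak with a gap of 0 bp, at chr20:59955159-59955492, and would not be masked-only if starts in the lists were counted from 1. The next had gaps of 51, 60, 70, 76 and 83 bp. Just outside, the smallest overlaps were 10, 17, 18, 28, 38 and 56 bp, and 4967 of the other peaks were covered over their whole width. The definition therefore rested on few borderline peaks.

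A minority of the masked-only CT peaks was seen again in KD or OE. In all, 3082 of 11624 (26.5%, 25.7 to 27.3) overlapped a peak of at least 1 of the 4 CTCF lists of KD and OE, unmasked or repeat-masked, where the share over all repeat-masked CT peaks was 58.3% and over the other peaks 83.0%. That is 56.5 percentage points less than in the other peaks (55.5 to 57.5). All 4 lists held 1854 of them (15.9%, 15.3 to 16.6), with 45.5% over all repeat-masked CT peaks and 68.5% in the others. Between 1 and 3 lists held 1228, and 8542 (73.5%, 72.7 to 74.3) were in none.

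By list, the unmasked KD list held 2580 masked-only peaks (22.2%, 21.4 to 23; all repeat-masked CT peaks 55.1%). The repeat-masked KD list held 2689 (23.1%, all 54.4%), the unmasked OE list 2236 (19.2%, all 51.0%) and the repeat-masked OE list 2370 (20.4%, all 49.8%). All 4 lists thus held similar shares, each below the share over the whole list. As a genome background, the reference was divided into 13921582 adjoining tiles of 211 bp. Of these tiles, 0.814% overlapped an unmasked KD peak and 0.309% a repeat-masked OE peak, so that recurrence was far above that of an average stretch of genome of this width. Seen from the other side, the peaks overlapping a masked-only CT peak made up 5.42% of the 47632 unmasked KD peaks, 4.74% of the 47216 unmasked OE peaks, 11% of the repeat-masked KD peaks and 11.3% of the repeat-masked OE peaks. The KD and OE peaks that met a masked-only CT peak were of ordinary width, with a median of 302 bp in unmasked KD, where the whole list had 290 bp.

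**Figure D2:**
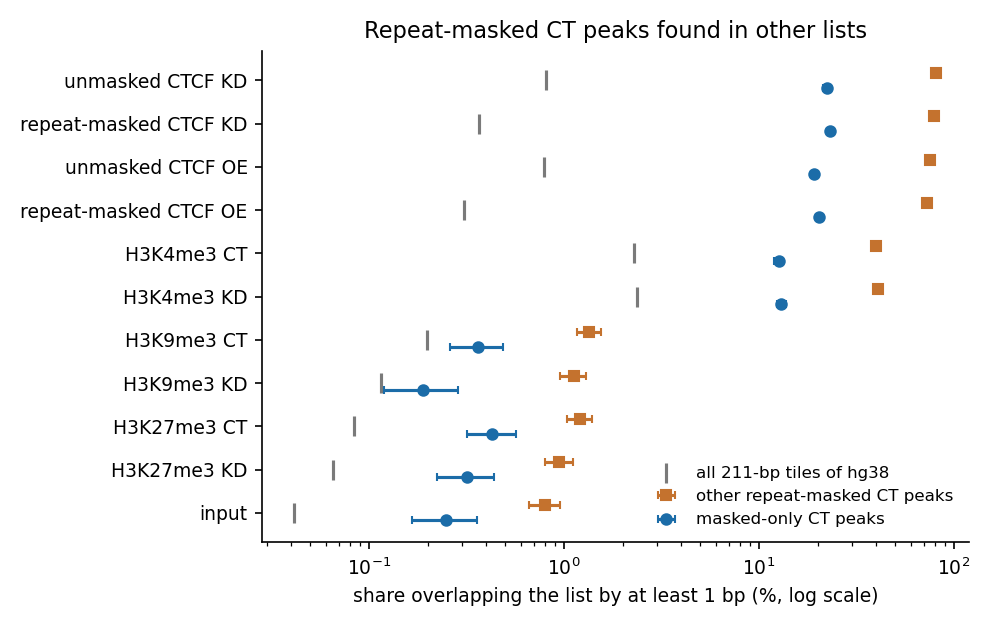
Share (%, log axis) of masked-only CT peaks (circles) and of the other repeat-masked CT peaks (squares) that overlap each list by at least 1 bp, with 95% intervals, and of all 211-bp genome tiles (bars). For the 4 CTCF lists the masked-only shares run from 19.2% to 23.1%, under those of the other peaks and over those of the tiles.

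Width and recurrence went together. At the narrowest width, 17.4% of masked-only peaks recurred in 1 or more of the 4 lists, while 42.8% of the wider ones did. For the unmasked KD list alone the share in the wider ones was 35.5%. At equal width the gap to the other peaks was smaller but large, since 58.6% of the other peaks of 211 bp recurred, a difference of 41.2 percentage points (39.0 to 43.4). Presence in all 4 lists was most common at intermediate widths, with 50.9% of the masked-only peaks of 221 to 250 bp and 43.0% of those over 250 and up to 300 bp. Above 300 bp it was 14.6%.

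CTCF sites were much rarer in masked-only peaks than in the others. A site is a match to a position weight matrix of 14 columns, learned from 17916 unmasked CT peaks shared with unmasked KD and OE, none of which can overlap a masked-only peak, with a score that a random sequence position reaches with p below 0.0001 (at least 8.33 bits). Such a site was in 3429 masked-only peaks (29.5%, 28.7 to 30.3), with 58.2% over all repeat-masked CT peaks and 80.4% in the others, a difference of 50.9 percentage points (49.8 to 51.9). At the width of 211 bp the shares were 22.3% and 56.7%, a difference of 34.4 percentage points (32.2 to 36.6). In the genome tiles of 211 bp the share was 9.98%, and in windows of the same width 1 kb upstream and downstream of the masked-only peaks it was 11.6% and 11.1%. A strict site (p below 0.00001, at least 13.27 bits) was in 2242 (19.3%, 18.6 to 20), against 46.1% over all repeat-masked CT peaks and 1.55% of tiles. The CTCF consensus with at most 1 mismatch was in 15%, against 1.08% of tiles. At the width of 211 bp it was in 10.4% of masked-only peaks and 33.4% of the others. The masked-only peaks as a whole therefore lay between the genome and the other peaks.

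Splitting them by recurrence gave groups that lay near either end. Among the 1854 in all 4 KD and OE lists, 1706 (92.0%, 90.7 to 93.2) held a site and 1381 (74.5%) a strict one. These shares were somewhat below the 94.9% and 81.4% of the other peaks in all 4 lists. The difference was 2.90 percentage points (1.60 to 4.21) in sites and 6.94 (4.81 to 9.06) in strict sites. Among the 8542 in no list, 893 (10.5%, 9.81 to 11.1) held a site, next to 9.98% of genome tiles and to 10.3% and 10.0% of the windows 1 kb to either side of them. Strict sites in that group, 288 (3.37%, 3.0 to 3.78), were above the 1.55% of tiles. Other repeat-masked CT peaks in no list had 17.6% sites, 7.14 percentage points more (5.53 to 8.75).

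The share with a site rose with each further list. It was 54.3% in the 335 masked-only peaks found in 1 list, 65.4% in the 555 in 2 lists and 84.3% in the 338 in 3 lists. KD and OE gave 1 library each, called both unmasked and repeat-masked, so a further list is not always a further library. Of the 555 peaks in 2 lists, 273 were in both KD lists alone. H3K4me3 overlap and the strict share were likewise lowest with no list and highest with all 4, as the plot by number of lists shows.

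**Figure D3:**
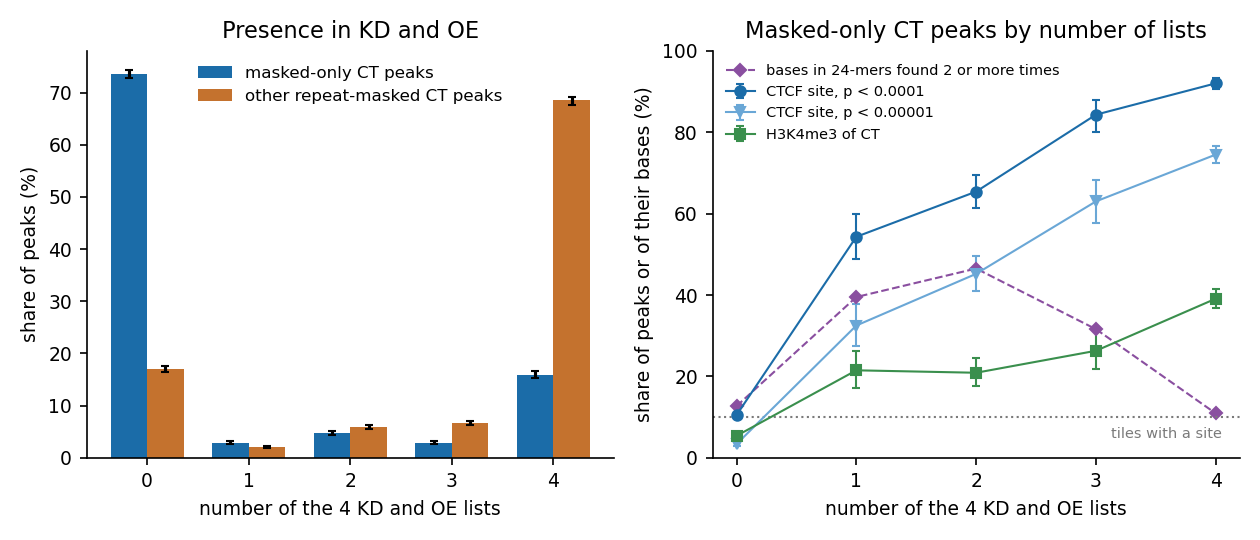
Left, share of masked-only CT peaks and of the other repeat-masked CT peaks (%) by how many of the 4 KD and OE CTCF lists they overlap, with 73.5% of the masked-only peaks at 0 and 68.5% of the others at 4. Right, for the masked-only peaks, the share (%) with a CTCF site, a strict site or H3K4me3 of CT and the share of bases in 24-mers found 2 or more times, the dotted line being the 9.98% of genome tiles with a site and all error bars 95% intervals.

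The place of the site in the peak followed the same division. The best site lay within 50 bp of the peak centre in 2333 of the 3429 masked-only peaks with a site (68.0%, 66.4 to 69.6), and within 25 bp in 39.3%. In the other peaks 72.7% lay within 50 bp, a difference of 4.67 percentage points (2.91 to 6.42). In masked-only peaks of all 4 lists the share within 50 bp was 77.0% (74.9 to 78.9) and the median distance to the centre 27.5 bp. The other peaks of all 4 lists had 75.2%, a difference within its counting error. In masked-only peaks of no list it was 54.2% (50.9 to 57.5) with a median of 47.0 bp, where the other peaks of no list had 46.8%. In 1 to 3 lists it was 64.6% (61.2 to 67.8), where the other peaks had 65.9%, and at the width of 211 bp 64.2%, where the others had 65.3%. Of these comparisons within a group, only the difference in no list had an interval clear of 0 (others minus masked-only, -7.43 percentage points, -13.1 to -1.77), and that in 1 to 3 lists was not given an interval. The peaks of no list differed in width, with a mean of 219 bp in masked-only peaks and 269 bp in the others. The part of width in this difference was not tested. In no list each 20-bp bin out to 90 bp from the centre held between 0.808% and 1.22% of the peaks, a nearly flat profile. Site scores differed too, with a median of 16.9 bits in all 4 lists and 11.3 bits in none. Sites lay on the forward strand in 1715 peaks and on the reverse strand in 1714.

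**Figure D4:**
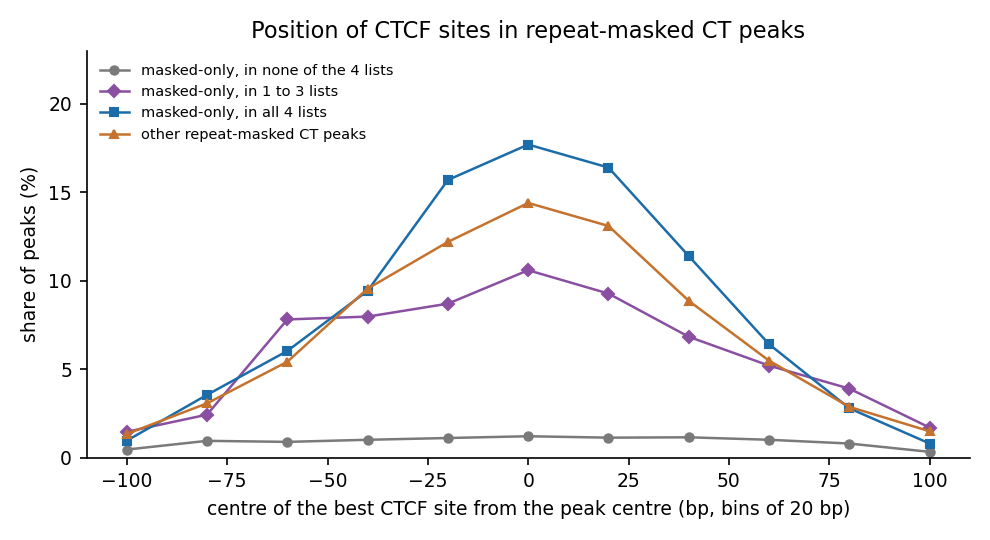
Share of peaks (%) whose best CTCF site is centred in each 20-bp bin of distance (bp) from the peak centre, for masked-only CT peaks in none, 1 to 3 or all 4 of the KD and OE lists and for the other repeat-masked CT peaks. In the central bin the shares are 1.22%, 10.6%, 17.7% and 14.4%.

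Base composition differed along the same line. GC content was 40.8% in masked-only peaks, 40.9% in genome tiles and 46.1% in the other peaks. It was 38.3% in masked-only peaks of no list and 47.5% in those of all 4 lists, and CpG dinucleotides numbered 8.36 and 20.6 per kb. The other peaks had similar GC content by recurrence, 39.0% in no list and 47.4% in all 4 lists. In both sets the peaks in no list were thus poorer in GC than the average tile.

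The 8 widest masked-only peaks in all 4 lists with a strict site, of 1284 such peaks that met the naming rule, were far wider than the median of 216 bp in all 4 lists and are examples, not typical peaks. The widest (a1, chr3:94069164-94069672) is an intronic peak of 509 bp, 6.03 kb from the TSS of DHFR2, a dihydrofolate reductase gene. It met peaks of 347 bp in unmasked KD, 319 bp in repeat-masked KD, 372 bp in unmasked OE and 309 bp in repeat-masked OE, and its site of 18.7 bits lay 2.50 bp from the centre. No unmasked CT peak was nearer than 27506 bp. The peak thus had a site near its centre and a counterpart in every KD and OE CTCF list.

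Region a2 (chr4:2441720-2442190, 471 bp), 20.3 kb from the TSS of RNF4, a SUMO-targeted ubiquitin ligase gene, held 4 sites, the best of 19.1 bits, in sequence of 65.2% GC. Its KD peaks measured 322 and 272 bp (unmasked and repeat-masked) and its OE peaks 341 and 286 bp. Region a3 (chr6:135506349-135506816, 468 bp), 8.15 kb from the TSS of the ciliary gene AHI1, was alone among the 8 in overlapping H3K4me3, with peaks of 408 bp in CT and 466 bp in KD. Its CTCF peaks were 360 and 357 bp wide in KD and 302 and 312 bp in OE.

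The other 5 lay 22.3 to 354 kb from the nearest coding TSS. They were a4 near MDFIC (430 bp, best site 20 bits), a5 near WDR76 (411 bp, 13.4 bits), a6 near PSG1, a pregnancy-specific glycoprotein gene (407 bp, 19.9 bits), a7 in an intron near COL4A5, a basement membrane collagen gene (404 bp, 18.1 bits), and a8 near AEBP2, a Polycomb cofactor gene (390 bp, 13.4 bits). Sites were not always central in these wide peaks. The best site lay 44.5 bp from the centre in a2, 31 bp in a4 and 7 bp in a7, but 89.5 bp in a6, 110 bp in a8, 131 bp in a3 and 176 bp in a5. Region a6 had 86.2% of its bases in 24-mers found 2 or more times in hg38 and 20.4% in those found 10 or more times. In the other 7 of the 8, at most 7.92% of bases were in 24-mers found 2 or more times.

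H3K4me3 overlapped 1463 masked-only peaks in CT (12.6%, 12 to 13.2), with 28.0% over all repeat-masked CT peaks and 40.0% in the others, a difference of 27.4 percentage points (26.4 to 28.4). At the width of 211 bp the shares were 9.47% and 24.4%, a smaller difference of 14.9 percentage points (13.0 to 16.8). In KD the number was 1515 (13.0%, with 28.7% over all repeat-masked CT peaks). The share was above the 2.28% of genome tiles and above the 3.81% and 3.85% of windows 1 kb upstream and downstream, so the overlap was local to the peak. The 1472 H3K4me3 peaks of CT that they met were 1.92% of the 76814 in that list. Their median width was 610 bp, where the whole list had 545 bp.

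H3K4me3 overlap also followed recurrence. It was 461 of 8542 in no list (5.40%, 4.93 to 5.90), 277 of 1228 in 1 to 3 lists (22.6%) and 725 of 1854 in all 4 lists (39.1%, 36.9 to 41.4). In the other peaks of all 4 lists it was 49.2%, which is 10.1 percentage points more (7.68 to 12.5). For strict sites the same groups differed by 6.94 percentage points (4.81 to 9.06).

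Most of the H3K4me3 overlap lay away from annotated starts, as it did in the other peaks, with 4898 of 5997. Of the 1463 masked-only peaks, 1085 (74.2%) had no TSS of GENCODE release 44 within 1 kb, counting 50 on sequences that carry no annotation here, and 958 (65.5%, 63.0 to 67.9) held a CTCF site. The 505 without a site included 144 within 1 kb of a TSS and 73 in all 4 lists. GC content was 50.9% with H3K4me3 and 39.3% without.

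Gene context was much like that of the other peaks, with somewhat fewer peaks at starts. By the peak centre, 6029 masked-only peaks (51.9%) lay in introns, 4279 (36.8%) between genes, 447 (3.85%) in exons of non-coding genes or transcripts, 271 (2.33%) in untranslated regions and 263 (2.26%) in coding exons. The other 335 (2.88%) lay on sequences outside chromosomes 1 to 22, X and Y, which carry no annotation and count as far from a TSS. In the other repeat-masked CT peaks the intron, intergenic and untranslated shares were 49.8%, 36.6% and 3.94%. Within 1 kb of a TSS lay 808 masked-only peaks (6.95%, 6.50 to 7.43), with 8.72% over all repeat-masked CT peaks, 10.1% in the others and 3.81% of tiles. The share was 4.48% within 500 bp, 10.5% within 2 kb, 7.16% within 1 kb on chromosomes 1 to 22, X and Y alone and 3.17% within 1 kb of a protein-coding TSS.

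Masked-only peaks near a start held sites, met H3K4me3 and recurred more often than the whole set. Of the 808, 385 (47.6%) held a CTCF site, 378 (46.8%) overlapped H3K4me3 in CT and 351 (43.4%) recurred in KD or OE. Among the peaks in no list, 457 (5.35%) were within 1 kb of a TSS, and among those in all 4 lists 194 (10.5%). The difference of the latter from the 10.3% of other peaks in all 4 lists was within its counting error. Other peaks in no list had 6.94%, which is 1.59 percentage points more than the masked-only peaks in no list (0.491 to 2.68).

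Promoter peaks with H3K4me3 and no CTCF site numbered 114 under the naming rule, and most of the widest ones described here were absent from KD and OE. Absence was the common case, and held for 354 of all 505 masked-only peaks with H3K4me3 and no site (70.1%). Of all masked-only peaks 73.5% were in none of the 4 lists. At SLC16A4, a member of the monocarboxylate transporter family, b1 (chr1:110391229-110391627, 399 bp) lay 0.346 kb from the TSS under an H3K4me3 peak of 1114 bp in CT and 1160 bp in KD, and met a peak of 261 bp in the unmasked KD list alone. At RESF1, b2 (chr12:31959937-31960328, 392 bp) lay under H3K4me3 of 1120 bp in CT and 968 bp in KD and met no CTCF peak of KD or OE. The same absence from all 4 lists held for b3 at RABGEF1, b4 at a gene without a symbol, b6 at DEF8 and b8 at RPS10, with H3K4me3 peaks in CT of 2314, 3179, 1091 and 1965 bp. Region b7, at C1orf56, met unmasked peaks of 367 bp in KD and 244 bp in OE.

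Gene lists placed these promoters among gene families. Over all 20007 protein-coding genes, 415 (2.07%, 1.88 to 2.28) had a masked-only CT peak within 1 kb of a TSS, 199 of them one in no KD or OE list and 118 one in all 4. Among 86 cytosolic ribosomal protein genes it was 4 (4.65%, 1.28 to 11.5), namely RPL24, RPS10, RPS27A and RPS3A. RPS3A alone had its peak in all 4 KD and OE lists and held a site, and the others were in no list. Of 78 mitochondrial ribosomal protein genes 1 had such a peak (1.28%), MRPS21, in no list. Each of these ribosomal peaks overlapped H3K4me3 in CT and KD. So would most peaks there, since 78 of the 86 cytosolic and 76 of the 78 mitochondrial genes had H3K4me3 at the TSS. Of all 20007 protein-coding genes 13321 had it.

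Proteasome subunit genes gave 2 of 48 (4.17%, 0.509 to 14.3), PSMD1 and PSME3, both with a centred site, H3K4me3 and a peak in all 4 lists. H3K4me3 lay at the TSS of 41 of the 48 genes. The PSMD1 site scored 20.9 bits and lay 0.5 bp from the centre of a peak of 211 bp. Clustered protocadherin genes, whose promoter choice is known to depend on CTCF, gave 3 of 53 (5.66%, 1.18 to 15.7). PCDHA8 and PCDHB14 were in all 4 lists with sites of 12.2 and 13.0 bits, and PCDHGC3 had no site and met only the KD lists.

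Replication-dependent histone genes gave 4 of 74 (5.41%, 1.49 to 13.3), H3C6, H3C8, H4C14 and H4C15. H4C14 was in all 4 lists, H4C15 in both KD lists, and H3C6 and H3C8 in none. ZNF genes, which encode zinc finger proteins, gave 14 of 508 (2.76%, 1.51 to 4.58), 10 with a peak in no list and 2 with one in all 4. Of the 4 earliest by symbol, ZNF143, ZNF175 and ZNF207 were in no list and ZNF221 was in all 4 with a site of 16.4 bits. Olfactory receptor genes, which are silent outside sensory neurons for the most part, gave 4 of 415 (0.964%, 0.263 to 2.45). At OR10G8, OR2V2, OR4D10 and OR5D13 the peak was 211 or 212 bp wide, without a site, without H3K4me3 and in no list. Only 11 of the 415 genes had H3K4me3 at the TSS, and 73.5% of all masked-only peaks were in no list.

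Keratin-associated protein genes gave 1 of 94 (1.06%), KRTAP5-5, with a peak of 304 bp in all 4 lists and no H3K4me3. Among 17 CTCF and cohesin genes, 1 (5.88%, 0.149 to 28.7) had a masked-only peak, HDAC8, which encodes a cohesin deacetylase, and it met the unmasked KD list alone. No HOX gene of 39 had one (exact upper bound 9.03%), no imprinted gene of 24 (14.2%) and no kidney development factor gene of 20 (16.8%). Taken as 3 counts of the total, a count of 0 allows 7.69%, 12.5% and 15% in these lists. The intervals of these lists are wide. None of those lay wholly above the 2.07% of all protein-coding genes.

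Recurrence in some but not all lists went with repeated sequence. A base counts as duplicated where it lies in a 24-mer found 2 or more times in the 455 sequences of hg38 on either strand, and as repeated where found 10 or more times. The 455 include sequences outside the chromosomes, which may copy parts of them. A base can thus count as duplicated for such a copy alone, and the part of this in the shares was not tested. Duplicated bases made up 15.6% of masked-only peaks and 14% of the others, and repeated bases 4.88% and 4.07%. In the 500 bp on either side, repeated bases made up 14.8% for masked-only peaks and 14.4% for the others. Both sets were called with repeats masked, while the flanks may hold them, so the lower share in the peaks is no finding. With those 500 bp included the duplicated share of masked-only peaks was 24.4%. In masked-only peaks wider than 211 bp the repeated share was 8.08%, and bases in 24-mers found 100 or more times made up 1.19% of all masked-only peaks. Across recurrence the duplicated share was 12.7% in no list, 40.5% in 1 to 3 lists and 10.9% in all 4. The other peaks had 10.5%, 22.9% and 13.2%, so they too were highest in 1 to 3 lists. It peaked at 46.5% in exactly 2 lists.

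The combination of lists separated these further. In both repeat-masked lists and neither unmasked one were 159 peaks, with 84.8% duplicated and 55.3% repeated bases, a site in 25.2% and a median width of 268 bp. Present in the unmasked lists only were 220 peaks with 19.1% duplicated bases. In both KD lists and no OE list were 273 peaks, with sites in 83.5% (78.6 to 87.7), and in both OE lists and no KD list 53, with sites in 69.8% (55.7 to 81.7). KD and OE were 1 library each, so a difference of condition and of library cannot be told apart. Masked-only peaks of KD and OE by the same definition had 45.6% and 49.6% duplicated bases, against the 15.6% of CT.

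**Figure D5:**
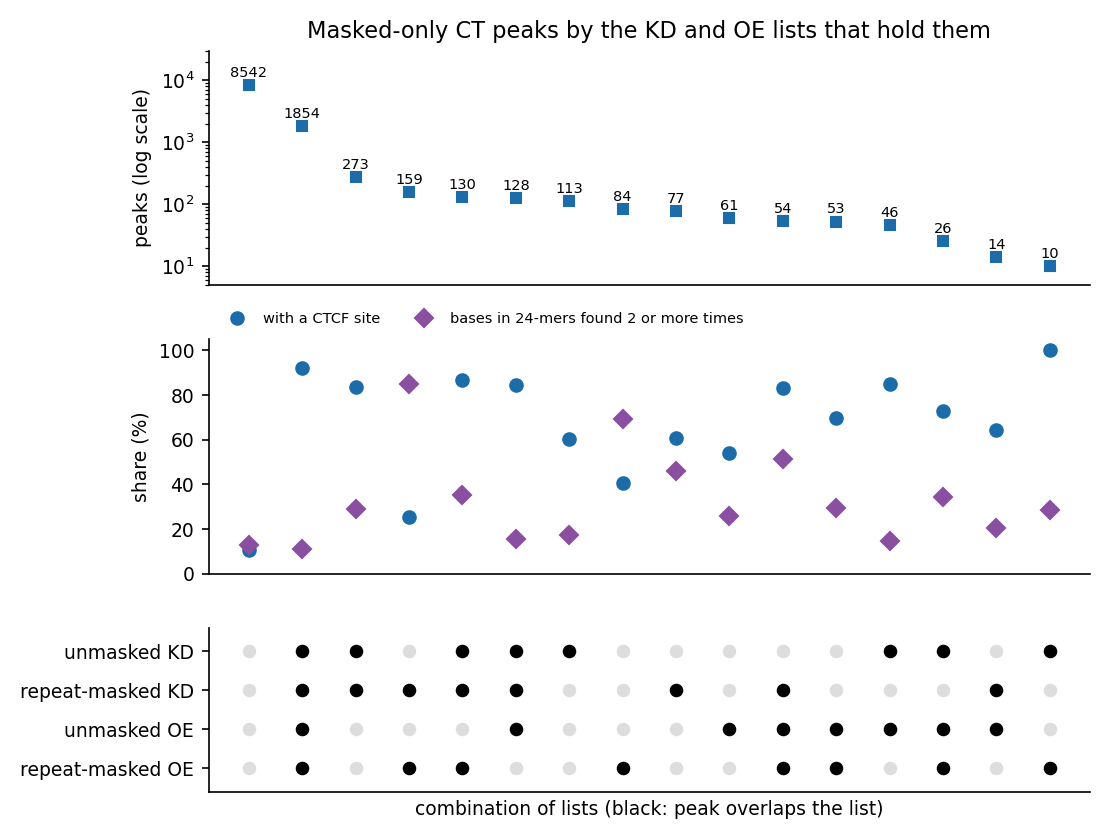
Masked-only CT peaks by the combination of the 4 KD and OE lists that they overlap (black dots), ordered by number, with the number of peaks on a log scale above and the share (%) with a CTCF site and of bases in 24-mers found 2 or more times in the middle. The 159 peaks in both repeat-masked lists alone have the highest duplicated share, 84.8%.

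Repressive marks and the input overlapped few masked-only peaks, at shares below those of all repeat-masked CT peaks. H3K9me3 of CT overlapped 42 (0.361%, 0.261 to 0.488, with 0.920% over all repeat-masked CT peaks and 0.199% of tiles) and of KD 22 (0.189%, 0.119 to 0.286, with 0.713% over all and 0.116% of tiles). H3K27me3 of CT overlapped 50 (0.430%, with 0.867% over all and 0.0835% of tiles) and of KD 37 (0.318%, with 0.672% over all and 0.0658% of tiles). Input peaks overlapped 29 (0.249%, 0.167 to 0.358, with 0.559% over all and 0.0415% of tiles). In the masked-only peaks of 211 bp, the width of the tiles, no share stood apart from that of the tiles beyond its interval. There H3K9me3 overlapped 0.201% in CT and 0.0939% in KD, H3K27me3 0.107% and 0.0536%, and the input 0.0268% (0.00325 to 0.0969). For the input over all widths, counting only overlaps of at least 0.5 of the CTCF peak, the share was 0.155%. The 29 had 96.1% duplicated bases, 17 were in all 4 KD and OE lists and 21 overlapped H3K4me3. Of the 29, 20 also overlapped H3K27me3 of CT and 17 that of KD, so they are among the 50 and 37 given above. H3K9me3 of CT overlapped 7 of the 29 and that of KD 8. The 50 peaks on H3K27me3 of CT had 83.0% duplicated bases. No masked-only peak in 0 of the 4 lists overlapped an input peak. Input signal high enough to be called was therefore found at recurring peaks alone among the masked-only ones.

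Crossing the measures left 1381 masked-only peaks (11.9%, 11.3 to 12.5) in all 4 KD and OE lists with a strict site, with 36.6% over all repeat-masked CT peaks and 55.7% in the others. The measures are not independent of each other, since the matrix was learned from peaks that recur in KD and OE, and sites and H3K4me3 both varied with the number of lists. At the other end, 7295 (62.8%, 61.9 to 63.6) were in no KD or OE list, held no site and did not overlap H3K4me3 of CT, where 34.6% of all repeat-masked CT peaks and 12.8% of the others had none of the 3. At the width of 211 bp the shares were 71.1% in masked-only peaks and 32.8% in the others, a smaller contrast. The rest carried some of these features and lacked others, among them 2 small groups at odds in sites and recurrence. The 288 peaks with a strict site in no list had a median width of 211 bp, 51.7% GC, H3K4me3 in 17% and a TSS within 1 kb in 16.7%. The 148 peaks in all 4 lists without a site had 20.1% duplicated bases, H3K4me3 in 49.3% (41.0 to 57.7) and input overlap in 8.78%.

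The 6 widest of the 6725 peaks without any list, mark, input or site on chromosomes 1 to 22 and X without 8 measured 516 to 589 bp. The widest, c1 (chrX:155919753-155920341, 589 bp), lies in an intron 38.7 kb from the TSS of VAMP7, a vesicle fusion gene. Region c2 (chr5:69963720-69964270, 551 bp) lies between genes, 61.3 kb from the TSS of SERF1B. All bases of both were in 24-mers found 2 or more times. In those found 10 or more times were 99.1% of the bases of c2 and 0.00% of those of c1. The other 4 lay in introns, with FLYWCH1, NTRK2, KIAA1191 and MMS22L as the nearest coding genes by TSS. The distances were 1.69, 392, 24.9 and 397 kb in that order, and the peak nearest to MMS22L lay outside protein-coding genes. All 4 had 0.00 to 7.07% duplicated bases. Great width without recurrence thus came with repeated sequence in c2, with duplicated but not repeated sequence in c1, and with mostly unique sequence in the other 4.

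Along the genome the masked-only peaks were spread more evenly than the others. Over chromosomes 1 to 22 and X their density per Mb of known sequence ran from 3.23 on chromosome 4 to 4.32 on chromosome 13, a ratio of 1.34, while the other peaks ran from 2.56 on chromosome 4 to 7.97 on chromosome 22, a ratio of 3.11. The peaks in no list had 2.17 on chromosomes 19 and 22, their lowest, and 3.53 on chromosome 13, their highest. Those in all 4 lists had 0.337 on chromosome 13, their lowest, and 1.11 on chromosome 19, their highest. Neighbouring masked-only peaks were a median of 86.6 kb apart, and 36 of the 11562 gaps between neighbours were within 1 kb.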

How the data were processed

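CTCF was measured in CT, KD and OE, H3K4me3, H3K9me3 and H3K27me3 in CT and KD, and 1 input, with 1 library each, grouped by target and condition as labelled. Per the labels and methods, the authors used bowtie2 for mapping of quality-filtered reads, once to hg38 with repeats masked and once without masking, and MACS2 for peaks. Their versions are not given in the sources used here. The p threshold was 0.001 for repeat-masked reads. For unmasked CTCF the labels give 0.0025 (CT, KD) and 0.005 (OE), the methods 0.005 with a minimum length of 200, and the labels give 0.001 for histone marks and input. The antibodies listed for H3K9me3 and H3K27me3 are exchanged between methods and labels, and the sample titles decided the mark here. The deposited lists hold peak positions in bp as the authors gave them, with no other unit and no depth, so precision is that of the number of peaks. Starts were read as counted from 0, and coordinates are printed counted from 1. The narrowest unmasked CTCF peaks are then 199 bp, under the stated minimum, so a count from 1, which would add 1 bp to every width, is possible.

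Of 19 lists 13 were used, and the 6 lists of exclusive peaks were left out as derived from them. Peaks sharing at least 1 bp overlapped. Sequences came from hg38 and genes from GENCODE release 44, with TSS distances taken from the peak centre. The matrix was grown from a consensus with at most 1 mismatch, keeping columns of at least 0.25 bits, with a pseudocount of 1. The reference does not mark repeats and RepeatMasker and MEME were not run, so 24-mer counts stood in for repeats. Python 3.11.15, numpy 2.4.6, pandas 2.3.3, scipy 1.17.1, numba 0.67.0, matplotlib 3.10.9 and samtools 1.23.1 were used, and the code was tested on simulated data.

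The members and the 12 gene lists were chosen with earlier results of these data known. Named regions are masked-only peaks on chromosomes 1 to 22 and X without 8. They are the 8 widest in all 4 KD and OE lists with a strict site, the 8 widest within 1 kb of a protein-coding TSS with H3K4me3 of CT and no site, and the 6 widest with no KD, OE, histone or input peak and no site. Genes of the lists are named where a masked-only peak lies within 1 kb of the TSS, at most 4 per list in order of symbol. Some regions and marker genes that the rule names are not reported here. Alternatives changed the overlap rule, the lists counted, the site threshold, matrix and width searched, the TSS distance, the 24-mer minimum and the peaks kept.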

Additional observations from a re-analysis of the deposited data

How the results depend on the processing

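Of 58 values under alternatives, 27 moved beyond the counting interval of the main value. The other 31 include values for peaks of at least 200 bp, which equal the main ones because no peak is narrower, a median width of 211 bp throughout, and the size of the set, which has no interval. For shares of bases the interval takes each base as separate and is so narrow that almost any change passes it. The size of the set was 11447 peaks without those within 1 kb of an unmasked CT peak and 11657 when at least 0.5 of a peak had to be covered to count as present. The share in 1 or more KD or OE lists was 25.6% with an overlap of at least 0.5 of the peak, 23.8% in the unmasked and 24.6% in the repeat-masked lists alone. The share with a CTCF site was 19.3% at the strict threshold, 15% by the consensus and 28.5% in 200 bp around the centre. Best sites lay within 50 bp of the centre in 73.3% at the strict threshold and within 25 bp in 39.3%. H3K4me3 overlapped 9.65% by at least 0.5 of the peak, and input 0.155%. The share near a TSS was 4.48% at 500 bp, 10.5% at 2 kb and 3.17% for protein-coding genes. Repeated bases were 4.09% on chromosomes 1 to 22, X and Y, 4.60% without peaks on input, 4.55% without peaks within 1 kb of an unmasked CT peak and 1.19% at a minimum of 100 occurrences, and duplicated bases 24.4% with 500 bp on either side.

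A pair of alternatives was added after seeing the data. In peaks wider than 211 bp the shares were 42.8% in 1 or more lists, 35.5% in unmasked KD, 42.3% with a site, 71.7% with a centred best site, 18.2% with H3K4me3, 8.37% near a TSS and 8.08% for repeated bases. In peaks with no duplicated base, sites were in 31.3% and H3K4me3 in 14%. The cause was not tested. The lists hold called positions alone, so a site just under a threshold in KD or OE counts as absent. No paired analysis was possible because each condition has 1 library.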

Other observations

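Masked-only CT peaks outside chromosomes 1 to 22, X and Y numbered 335. Of their bases 98.7% lay in 24-mers found 2 or more times, and 157 (46.9%, 41.4 to 52.4) held a CTCF site. The 24-mers were counted over these sequences as well as the chromosomes, and such sequences may copy parts of the chromosomes. The share of 98.7% may thus be set by the reference and is no finding. In none of the 4 KD and OE lists were 160 (47.8%), and 175 (52.2%) were in 1 or more. Over all repeat-masked CT peaks 58.2% held a site and 58.3% were in 1 or more lists. For the whole masked-only set the shares were 29.5% and 26.5%. The sequences outside these chromosomes held 137 of the 1228 masked-only peaks in 1 to 3 lists (11.2%) and 38 of the 1854 in all 4 (2.05%).

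The 177 masked-only peaks within 1 kb of an unmasked CT peak had 39.9% duplicated bases. A CTCF site was in 61 of them (34.5%, 27.5 to 42.0), 51 (28.8%) overlapped H3K4me3 of CT and 10 (5.65%) overlapped the input. Over all repeat-masked CT peaks these shares were 58.2%, 28.0% and 0.559%. The H3K4me3 share was thus near that of the whole list.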
